A study of Mus musculus with 2 samples.

Results

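The nuclear genes for subunits of the mitochondrial respiratory chain and ATP synthase were compared between mouse embryonic fibroblasts (MEFs) from wildtype mice and from mice without Malat1, a long noncoding RNA of nuclear speckles. A gene was taken as a member when its symbol in the array's annotation was that of a subunit of complex I to V or of cytochrome c, on a probe set with a single gene symbol. This gave 82 of 18194 genes, represented by 168 probe sets. There were 34 genes for complex I, 4 for complex II, 9 for complex III, 1 for cytochrome c, 17 for complex IV and 17 for complex V. Complex membership follows the symbol, so Ndufa4, now known to sit in complex IV, was counted with complex I.

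The respiratory chain passes electrons from NADH and succinate to oxygen and pumps protons out of the mitochondrial matrix, and ATP synthase uses the returning protons to make ATP. Complex I oxidizes NADH, complex II oxidizes succinate, complex III hands electrons to cytochrome c, and complex IV reduces oxygen. Most subunits are encoded in the nucleus and are joined in the mitochondrion to a small set encoded by mitochondrial DNA. Fibroblasts in culture use the chain beside glycolysis, and several complex IV subunits have forms restricted to muscle, lung or testis.

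The measurements came from Affymetrix Mouse430_2 expression arrays of total RNA, with 1 array for the wildtype and 1 for the Malat1 Knock-out. Both groups were C57BL/6 cells from embryos at embryonic day 13.5, were kept in culture for 2 weeks and received no treatment. Neither the knockout allele nor how many embryos stood behind each array is stated in the labels. With 1 array per genotype there is no replicate check and no test, so every difference below describes these arrays, and their number limits the precision. Values are deposited log2 signals, and a difference is the knockout level minus the wildtype level. Signals of different probe sets are not compared with each other, because a probe set's brightness depends on its probes.

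Of the whole arrays, Malat1 at its brightest probe set read 9.80 (wildtype) and 4.53 (knockout), and Xist, which marks cells with an inactive X chromosome, read 4.50 and 11.49, so sex-linked transcripts separate the arrays as the genotype does and sex and genotype cannot be told apart. All 11 fibroblast markers were above the floor on both arrays (the floor is each array's median signal, 5.39 and 5.44), with a log2 summed signal of 16.56 in the wildtype and 16.36 in the knockout. Singly, 8 of the 11 were lower, with a median difference of -0.34 and a range from -0.95 for Col1a1 to 0.74 for Dcn. The summed signal of 7 macrophage markers was 11.76 and 11.42, and that of 6 endothelial markers 8.83 and 9.68. It was 9.12 and 9.63 for 6 epithelial markers and 11.71 and 11.89 for 12 skeletal muscle markers. For 7 cardiac muscle markers it was 8.70 and 8.60, and for 6 brown fat markers 7.35 and 7.47. The brightest genes weigh most in such a sum, so it need not describe a whole list. Among the endothelial markers Emcn differed by 1.47, Kdr by 0.47 and Egfl7 by 0.11, and 3 were below the floor on both arrays. Singly, 6 of the 7 macrophage markers were lower, and all 4 measured epithelial markers were higher. Acta1 (0.22) was the brightest skeletal muscle marker, and Tnnt2 (-0.21) the only measured cardiac muscle marker. The part of sex or of these other cells in the results below was not tested, and fewer cells of a type and less RNA per cell cannot be told apart in such bulk samples.

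Most subunit genes had slightly higher signals in the knockout array. Of the 82 members, 78 lay above the floor on both arrays and are called measured. Of these 61 were higher in the knockout array and 17 lower, or 78.2% higher, against 39.2% of all 11295 measured genes. The median difference over the members was 0.07 and that over all measured genes -0.05. The differences were small, with 3 members at least 1.2-fold higher and 1 at least 1.2-fold lower, against 8.51% and 14.9% of all measured genes. None of the 78 reached 1.5-fold in either direction, which 2.44% of measured genes did. The SD of the difference across members was 0.127, against 0.241 across all measured genes and 0.199 between measured probe sets of the same gene. The last 2 cover genes at all signal levels, while most members are bright, so these values are not matched by level.

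**Figure D1:**
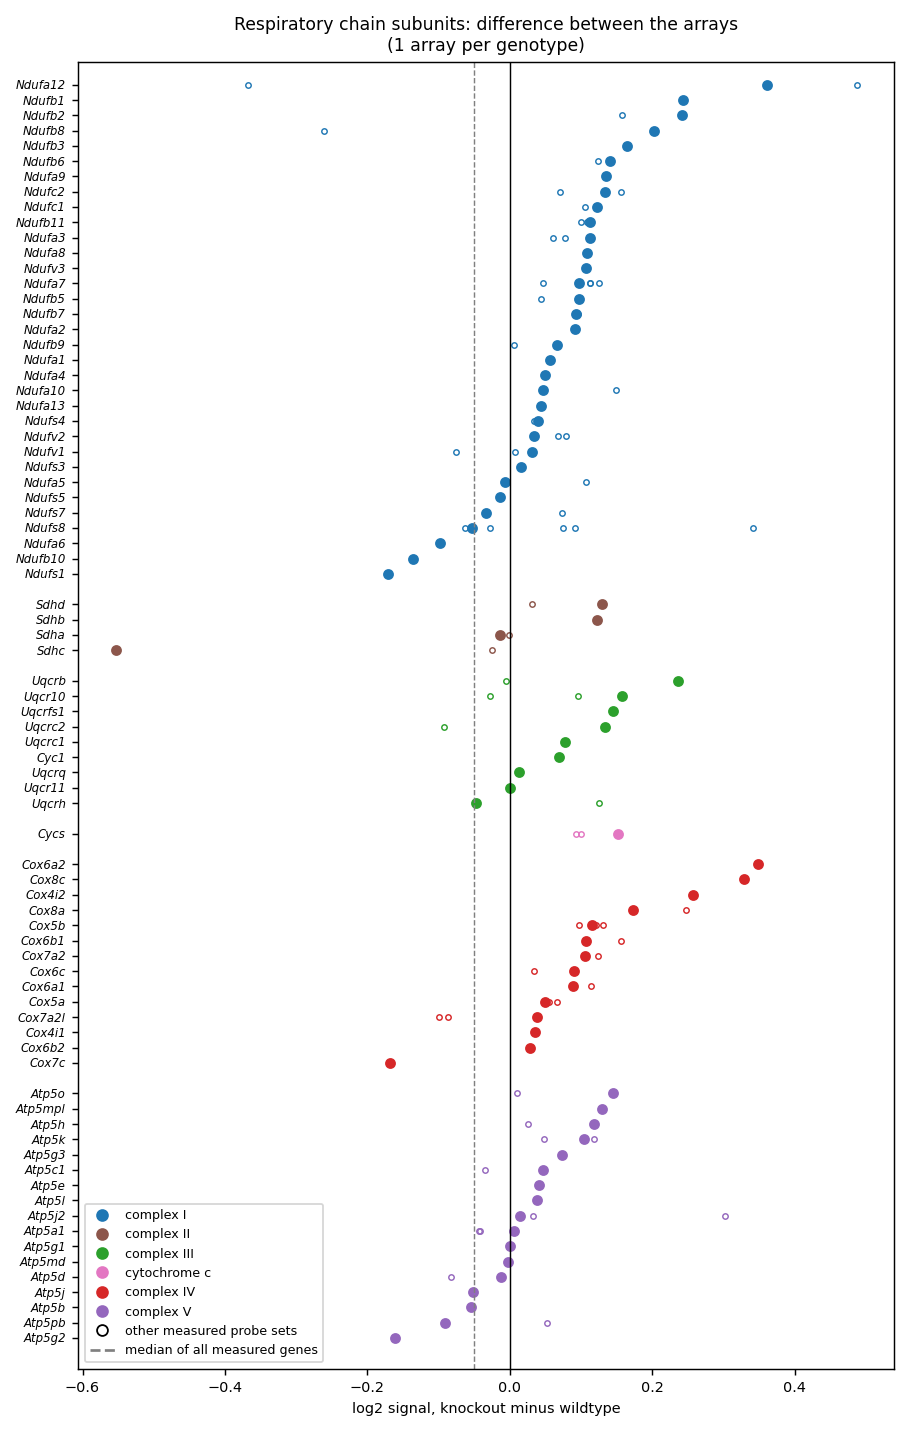
Difference in log2 signal (horizontal axis, knockout minus wildtype) for the 78 measured members, by complex. Filled points are the brightest probe set of each gene and open points its other measured probe sets; most filled points lie right of 0 and of the dashed median of all measured genes (-0.05), with Sdhc at -0.55 the lowest.

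The median difference also moved with signal level over the whole array, which bears on this count because the members are bright. Of the measured members 70 had a mean level of at least 10, where the median over 2224 genes was -0.01 and 46.8% were higher in the knockout array. Of those 70 members 56 were higher (80%), with a median of 0.07. The SD of the difference was 0.0882 across these members and 0.169 across the 2224 genes. In this bright range 2.79% of genes were at least 1.2-fold higher and 6.61% at least 1.2-fold lower, and 1 and 0 members were. Among genes at levels from 11 to below 12, 29 of 33 members were higher, or 87.9%, against 50.8% of 661 genes. From 12 to below 13 it was 16 of 20 members against 56.7% of 298 genes, and from 13 upwards 6 of 7 against 58.4% of 149. From 10 to below 11 it was 5 of 10 members, against 40.2% of 1116 genes.

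**Figure D2:**
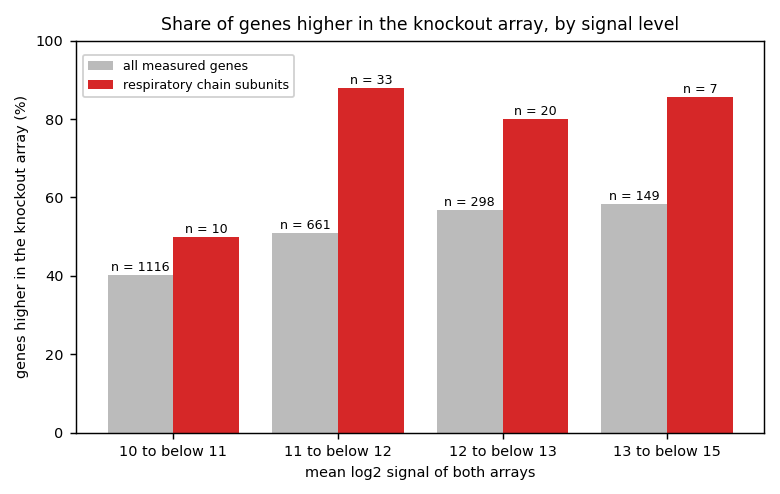
Share of genes higher in the knockout array (vertical axis, percent) in 4 ranges of mean log2 signal, for all measured genes (grey) and for the subunits (red), with the number of genes over each bar. The subunit bar is taller in each range, by 87.9% against 50.8% from 11 to below 12, and nearest the grey bar from 10 to below 11.

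**Figure D3:**
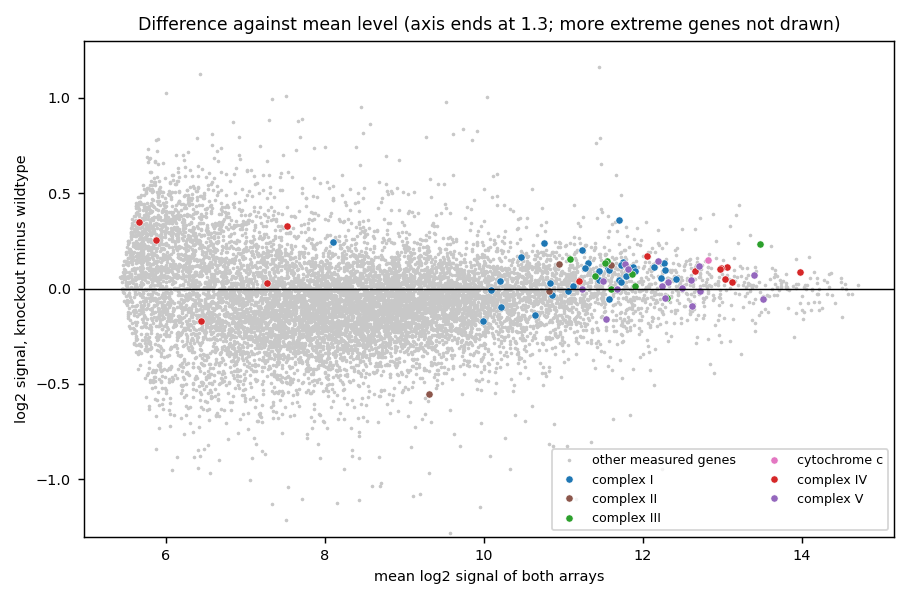
Difference in log2 signal (vertical axis, knockout minus wildtype) against the mean log2 signal of both arrays for all measured genes (grey) and the members (coloured by complex). The 70 members at a level of at least 10 form a narrow band whose median is 0.07, and dimmer members scatter more widely.

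Other scalings of the arrays kept the direction of the members as a group. After loess centring, which removes the trend with level, 66 of 78 members were higher, or 84.6%, against 52.6% of all genes. Quantile normalization also gave 66 of 78, against 55% of all genes. With the median difference of measured probe sets set to 0, 71 of 78 were higher (91.0%), against 52.4% of all genes. That scaling is a constant shift and keeps the trend with level, so the 52.4% is not matched to the bright members. Under it 35 of 44 measured genes for cytosolic ribosomal proteins were also higher (79.5%).

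Probe sets of the same gene gave a limited check within these RNA samples. Of 143 measured member probe sets 110 were higher in the knockout array, or 76.9%, against 37.2% of all measured probe sets with a single symbol. Among 43 members with several measured probe sets, all of a gene's probe sets were higher in 26, all were lower in 3, and they were mixed in 14. In all 4881 genes with several measured probe sets these shares were 14.5%, 41.8% and 43.7%, the last with genes that have a difference of exactly 0. Probe sets of a gene share an RNA sample and some share sequence, so they are not replicates. Among members with measured probe sets that disagreed, Ndufa12 ranged from -0.37 to 0.49, Ndufb8 from -0.26 to 0.20 and Sdhc from -0.55 to -0.02.

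Promoter sequences of the members were searched for the letters bound by factors that are known to act on respiratory genes, because many members differed the same way. RefSeq windows of mouse assembly GRCm38.p6, from 250 bases before to 50 after a gene's start, were found for 67 of the 82 members. The letters searched on both strands, in exact form, were GCATGCGC for NRF1, CTTCCGG for ETS factors such as GABP, AAGATGGC for YY1, TGACGTCA for CREB and TATAAA for the TATA box, and none of these contains another. The NRF1 letters and their reverse complement can overlap in a palindromic stretch, which was counted once per gene. The NRF1 letters were in 10 of the 67 members (14.9%), against 3.05% of 27025 genes with a window. The ETS letters were in 17 members (25.4%), against 9.93% of genes. YY1 letters were in 9 members (13.4%), against 3.19% of genes, and CREB letters in 4 (5.97%), against 2.03%. The TATA letters were in 8 members (11.9%), against 15.7%. The comparison genes were all those with a window, whether measured here or not, and were not matched to the members by signal level. Whether other bright genes hold these letters as often was not tested.

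The windows of 4 members with higher signals in the knockout array are shown as examples, chosen after the values were seen. They hold the NRF1 letters with the ETS letters (Cox6a1 and Atp5k), the NRF1 letters with the CREB letters (Cycs) or the CREB letters alone (Ndufb2). Each is written 5′ to 3′ on the gene's strand, with the matched letters of NRF1, ETS, YY1 and CREB in capitals.
Cox6a1, chr5:115348909-115349208, minus strand: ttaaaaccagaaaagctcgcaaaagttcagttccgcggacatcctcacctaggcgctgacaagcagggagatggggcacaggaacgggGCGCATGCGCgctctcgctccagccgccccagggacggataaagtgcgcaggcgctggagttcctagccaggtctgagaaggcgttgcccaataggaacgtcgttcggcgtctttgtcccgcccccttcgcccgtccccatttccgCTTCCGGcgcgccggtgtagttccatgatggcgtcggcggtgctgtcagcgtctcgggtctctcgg
Atp5k, chr5:108434350-108434649, minus strand: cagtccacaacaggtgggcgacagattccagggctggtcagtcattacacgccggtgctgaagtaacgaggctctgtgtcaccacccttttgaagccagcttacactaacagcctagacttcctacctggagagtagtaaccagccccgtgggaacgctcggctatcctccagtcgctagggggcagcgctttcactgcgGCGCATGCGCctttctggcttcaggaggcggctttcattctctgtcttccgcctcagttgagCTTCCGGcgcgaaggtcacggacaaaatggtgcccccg
Cycs, chr6:50566520-50566819, minus strand: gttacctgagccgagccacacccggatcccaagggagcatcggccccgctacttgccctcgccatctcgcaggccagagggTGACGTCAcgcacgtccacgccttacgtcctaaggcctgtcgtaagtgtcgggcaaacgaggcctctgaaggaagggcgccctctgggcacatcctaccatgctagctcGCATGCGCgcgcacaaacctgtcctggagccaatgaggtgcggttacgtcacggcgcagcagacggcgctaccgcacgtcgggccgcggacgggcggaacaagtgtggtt
Ndufb2, chr6:39592315-39592614, plus strand: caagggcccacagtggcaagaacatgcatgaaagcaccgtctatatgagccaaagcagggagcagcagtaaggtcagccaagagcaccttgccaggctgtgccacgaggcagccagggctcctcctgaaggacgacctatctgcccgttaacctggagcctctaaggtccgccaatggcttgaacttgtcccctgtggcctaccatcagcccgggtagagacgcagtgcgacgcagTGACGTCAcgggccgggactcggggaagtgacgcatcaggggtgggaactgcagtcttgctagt
The capitals fall at different places in the windows, and a match is only a run of letters. The median difference was 0.08 over the 10 measured members with NRF1 letters and 0.05 over the 53 without. It was 0.09 over the 17 with ETS letters and 0.05 over the 46 without, 0.15 over the 4 with CREB letters and 0.05 over the 59 without, 0.04 over the 9 with YY1 letters and 0.06 over the 54 without, and 0.07 over the 6 with TATA letters and 0.06 over the 57 without. The Uqcrc1 and Atp5g2 windows also held the NRF1 letters, and these genes differed by 0.08 and -0.16. So did those of Ndufa6 and Ndufa8, which differed by -0.10 and 0.11. The windows of Atp5l, Sdhb and Uqcr11 held the NRF1 and ETS letters, and these genes differed by 0.04, 0.12 and 0.00. Ndufa10 and Uqcrfs1, with the CREB letters, differed by 0.05 and 0.15.

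Complex I, the NADH dehydrogenase, had 33 measured genes. The knockout array read higher for 26 of them (78.8%), and their median difference was 0.09. Over all measured genes 39.2% were higher, and 46.8% of those at a mean level of at least 10. Each pair of levels below gives the wildtype first. Levels ran from 7.98 to 12.39 in the wildtype and from 8.22 to 12.44 in the knockout. The genes with the largest positive difference were Ndufa12, an accessory subunit, at 11.52 and 11.88 (0.36, or 1.28-fold), Ndufb1 at 7.98 and 8.22 (0.24) and Ndufb2 at 10.64 and 10.88 (0.24). Both measured Ndufb2 probe sets were higher, at 0.24 and 0.16, and another, below the floor of the knockout array, differed by -0.22, while those of Ndufa12 went in opposite directions. Ndufb8, a membrane arm subunit, read 11.14 and 11.34 (0.20). Lower genes were Ndufs1, which carries iron-sulfur clusters, at 10.07 and 9.90 (-0.17), Ndufb10 at 10.71 and 10.57 (-0.14) and Ndufa6 at 10.26 and 10.16 (-0.10). Ndufb4 read 3.34 and 3.23, under the floor of either array.

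The core subunits of complex I, those that carry out electron transfer and are shared with bacteria, stood nearer 0 as a group than the accessory subunits that surround them. Of 6 measured core genes 3 were higher and 3 lower, with a median of -0.01. Ndufv1, the flavin-bearing subunit that takes up the electrons of NADH, read 10.81 and 10.85 (0.03), and Ndufv2 read 11.71 and 11.74 (0.03). Ndufs3 differed by 0.02, Ndufs7 by -0.03, Ndufs8 by -0.05 and Ndufs1, given above, by -0.17. Of the 27 measured accessory genes 23 were higher, with a median of 0.10. The core median turned positive under the other scalings, at 0.02 to 0.05, where that of the accessory genes was 0.11 to 0.16. The difference between these role groups has no test, and the groups were formed after the values were seen.

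The X chromosome carries 2 of the members, Ndufa1 and Ndufb11, both accessory subunits of complex I. Ndufa1 read 12.20 and 12.26 (0.06) and Ndufb11 read 11.82 and 11.93 (0.11), with all 3 probe sets of Ndufb11 higher. Over the 354 measured X-linked genes the median difference was -0.02, and 160 were higher (45.2%). Over all measured genes these values were -0.05 and 39.2%.

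Complex II, the succinate dehydrogenase that also belongs to the citric acid cycle, had 2 genes higher (50%) and 2 lower, with a median of 0.05. Over all measured genes 39.2% were higher. Sdhb, the iron-sulfur subunit, read 11.54 and 11.66 (0.12) and the membrane anchor Sdhd read 10.88 and 11.01 (0.13). Sdha, the flavin subunit, read 10.82 and 10.81. Sdhc, the other membrane anchor, read 9.59 and 9.04, which is -0.55 or 1.47-fold lower and the lowest difference of all members. A second Sdhc probe set read 8.81 and 8.79, so the probe sets of Sdhc differed by 0.53 in their difference.

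Complex III, which oxidizes ubiquinol, had 8 of 9 genes higher (88.9%), with a median of 0.08. All 9 read above 11, and in the ranges of level from 11 upwards 50.8% to 58.4% of all genes were higher. All 4 of its core proteins and redox subunits were higher at their brightest probe set. Uqcrfs1, the Rieske iron-sulfur protein, read 11.47 and 11.62 (0.15), the core proteins Uqcrc2 and Uqcrc1 differed by 0.13 and 0.08, and Cyc1, cytochrome c1, by 0.07. A second Uqcrc2 probe set differed by -0.09. Among the small subunits, Uqcrb read 13.36 and 13.59 (0.24), though its second probe set differed by -0.01. Uqcr10 differed by 0.16, and its other probe sets by 0.10 and -0.03. Uqcrq differed by 0.01, Uqcr11 by 0.00 and Uqcrh by -0.05. A second Uqcrh probe set went the other way, at 11.58 and 11.71 (0.13). Cycs, the mobile cytochrome c that carries electrons from complex III to complex IV, read 12.74 and 12.89 (0.15), and its other 2 measured probe sets differed by 0.10 and 0.09.

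Complex IV, cytochrome c oxidase, had 13 of 14 measured genes higher (92.9%), with a median of 0.10. Over all measured genes 39.2% were higher. The forms present in most tissues gave 9 of 10 higher, with a median of 0.09. All of these forms but Cox7c read above 11, where 50.8% to 58.4% of all genes were higher, depending on the range of level. Cox8a, a small membrane subunit, read 11.97 and 12.14 (0.17), and a second probe set differed by 0.25. Cox5b read 13.00 and 13.12 (0.11), and its other 3 measured probe sets differed by 0.10 to 0.13. Cox6b1, which faces cytochrome c, read 12.94 and 13.04 (0.11), and Cox7a2 read 12.92 and 13.03 (0.10). Cox6a1 read 13.94 and 14.03 (0.09), Cox6c differed by 0.09, Cox5a by 0.05 and Cox4i1, a subunit involved in regulation by ATP, by 0.04. Cox7a2l, a factor of respiratory supercomplexes, differed by 0.04 at its brightest probe set and by -0.10 and -0.09 at the other 2. Cox7c, at 6.52 and 6.36, was the lower gene (-0.17). Its second probe set, below the floor of the knockout array, read 5.50 and 5.09. How well these dim probe sets report Cox7c was not tested.

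Of the 7 tissue-restricted forms of complex IV subunits, 4 were measured on both arrays. Cox6a2, the form of heart and skeletal muscle, read 5.49 and 5.83 (0.35, or 1.27-fold). Its partner in most tissues, Cox6a1, differed by 0.09. Cox4i2, the lung form induced by low oxygen, read 5.74 and 6.00 (0.26), and its partner Cox4i1 differed by 0.04. The testis forms Cox8c and Cox6b2 read 7.36 and 7.69 (0.33) and 7.26 and 7.29 (0.03). Cox8b, a muscle and brown fat form, was below the floor in the wildtype (5.16) and just above it in the knockout (5.54). It was not counted as measured, and no fold is given for it. Cox7a1, a muscle form, read 4.48 and 4.57, and Cox7b2, a testis form, read 3.09 and 2.63, both below the floor on each array. At a mean level of 5 to below 6, that of Cox6a2 and Cox4i2, the median difference over the whole array was 0.11, and 66.6% of those 972 genes were higher. At 7 to below 8, that of Cox8c and Cox6b2, it was -0.11, and 29.3% of those 2115 genes were higher. Of the markers of cells that use these forms, 6 of 12 skeletal muscle markers, 6 of 7 cardiac muscle markers and 5 of 6 brown fat markers were below the floor on both arrays, Myod1, Myog, Myh6 and Ucp1 among them. Of the 6 measured skeletal muscle markers, Des, Ckm, Acta1 and Atp2a1 differed by 0.44, 0.32, 0.22 and 0.17, the direction of Cox6a2, and Mylpf and Myl1 by -0.60 and -0.47. Their part in the Cox6a2 difference was not tested.

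Complex V, the ATP synthase, had 11 of 17 genes higher (64.7%), with a median of 0.01. That median was the lowest of the complexes under the values as deposited and after each of 3 other scalings. All 17 genes read above 11, and in the ranges of level from 11 upwards 50.8% to 58.4% of all genes were higher. The 5 genes of the F1 head and central stalk, where ATP is made, differed by -0.06 to 0.05. Atp5b, the catalytic beta subunit, read 13.55 and 13.49 and Atp5a1, the alpha subunit, 12.49 on both arrays. Of the 3 genes for the proton-carrying c-ring, Atp5g3 differed by 0.07, Atp5g1 by 0.00 and Atp5g2, at 11.62 and 11.46, by -0.16. In the peripheral stalk, which holds the head still, Atp5o read 12.12 and 12.26 (0.14) and Atp5h 12.65 and 12.77 (0.12), while Atp5pb differed by -0.09 and Atp5j by -0.05. Second probe sets of Atp5o, Atp5h and Atp5pb differed by 0.01, 0.03 and 0.05. Atp5mpl, a small membrane subunit, read 11.71 and 11.84 (0.13).

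Other genes of mitochondrial respiration were set beside the subunits from lists of their known roles. The 13 subunits encoded by mitochondrial DNA were not analysed here. Of 52 measured assembly factors, including the ATP synthase inhibitor, 30 were higher and 21 lower, with a median of 0.03, and Cox10 read the same on both arrays. As deposited 57.7% of these factors were higher, against 39.2% of all measured genes. The other scalings left 40 to 43 higher (76.9% to 82.7%), against 52.4% to 55% of all genes, and the factors' median became 0.09 to 0.11. By complex, 11 of 17 were higher for complex I, 3 of 4 for complex II, 4 of 5 for complex III, 10 of 20 for complex IV and 2 of 6 for complex V. Tmem186 and Foxred1, factors of complex I, differed by -0.33 and -0.26, the complex II factors Sdhaf2 and Sdhaf3 by 0.16 and 0.15, and Uqcc1 and Uqcc3, of complex III, by -0.29 and 0.17. The complex IV factors Cox19 and Coa8 differed by 0.24 and -0.24, and the F1 assembly factor Atpaf2 and Tmem242, of complex V, by -0.15 and -0.10. No assembly factor was at least 1.2-fold higher, and 2 were at least 1.2-fold lower, against 8.51% and 14.9% of all measured genes.

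Of 12 measured genes for the synthesis of coenzyme Q, the lipid that carries electrons to complex III, 7 were higher (58.3%), with a median of 0.03. Over all measured genes 39.2% were higher. The coenzyme Q median was 0.09 with the median difference set to 0, 0.11 after quantile normalization and 0.10 after loess centring. After the last pair 9 of 12 were higher, against 55% and 52.6% of all genes. Coq8b, a kinase-like protein of this pathway, read 7.75 and 7.20 (-0.55) and Coq10a differed by -0.21. Of 10 other subunits and partners of the chain 6 were higher, with a median of 0.02. Ndufa4l2, induced by low oxygen, read 6.14 and 6.40 (0.26), and Gpd2, which feeds electrons from glycerol 3-phosphate, read 8.93 and 9.13 (0.20). Tricarboxylic acid cycle genes other than those of complex II had 6 of 12 higher and a median of -0.00029. Dld, a dehydrogenase subunit shared by several enzymes, read 9.66 and 9.14 (-0.52), and Ogdh read 8.87 and 8.58 (-0.29).

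Of 17 measured regulators of mitochondrial gene expression 4 were higher and 12 lower with the values as deposited, and Tfb1m read the same on both arrays. The share higher was 23.5%, near the 27.9% to 32.1% of all genes at levels from 7 to below 10, where most of these regulators lie. Yy1 and Ssbp1 were brighter, in ranges where 40.2% and 50.8% of all genes were higher. Polg2 was dimmer, in a range where 47.6% were. The median was -0.08, which became -0.02 with the median difference set to 0 and turned to 0.01 after quantile normalization and after loess centring. Gabpa, the DNA-binding subunit of GABP, read 9.93 and 9.67 (-0.26) and Polg2, a subunit of the mitochondrial DNA polymerase, 6.87 and 7.11 (0.24). Nrf1, the factor named above, read 7.21 and 7.24 (0.04) and Tfam, which packages mitochondrial DNA, 9.04 and 8.93 (-0.12). Ppargc1a, the coactivator PGC-1alpha, was below the floor on both arrays.

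**Figure D4:**
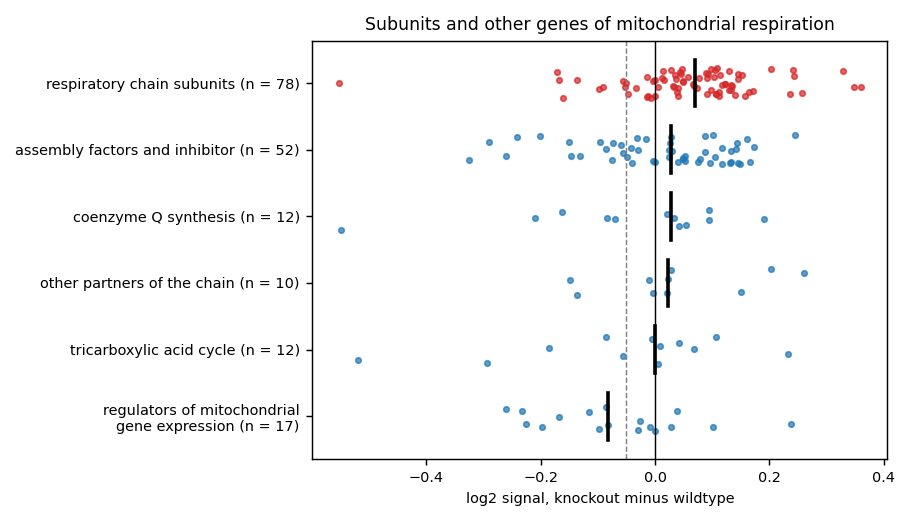
Difference in log2 signal (horizontal axis, knockout minus wildtype) for the measured subunits (red) and for 5 other lists of respiration genes (blue), where each point is a gene, black bars are medians and the dashed line is the median of all measured genes. As deposited the subunits have the highest median (0.07) and the regulators the lowest (-0.08), but after quantile normalization and loess centring the medians of the assembly factors (0.11 and 0.10) and of coenzyme Q synthesis (0.11 and 0.10) are above those of the subunits (0.09 and 0.09).

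The subunits were set beside the ribosomal protein genes. Of 73 measured genes for mitochondrial ribosomal proteins, which make the subunits encoded by mitochondrial DNA, 52 were higher (71.2%), with a median of 0.03. At a mean level of at least 10 it was 29 of 37 (78.4%), beside 80% of the subunits in that range. After loess centring 62 of 73 were higher, with a median of 0.09, beside 0.09 for the respiratory subunits. The largest differences were those of Mrpl35 at 10.03 and 10.47 (0.44) and Mrpl11 at 9.95 and 10.21 (0.26). Of 44 measured genes for cytosolic ribosomal proteins 23 were higher, with a median of 0.01. With the median difference set to 0 it was 35 (median 0.07), after quantile normalization 25 (0.02) and after loess centring 13 (-0.02). Rpl39l differed by -0.54 and Rpl14 by 0.44. The differences between these lists were not tested.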

How the data were processed

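The deposited table holds a single value for every probe set on either array, read here as log2 signal because of its range (2.09 to 14.71). How the authors summarized and normalized these log2 values is not stated in the labels. Per the labels' protocols, 100 ng of total RNA was amplified and labelled with biotin by a kit that primes at the 3′ end. Gene names came from the platform annotation, in which 34958 of the probe sets have 1 symbol. Each gene was read from its brightest probe set (by the mean over the arrays). It counted as measured at or above each array's 50th percentile over 45037 non-control probe sets, which stands in for a detection call. Groups came from the genotype label. No test was run, and sizes of 1.2-fold and 1.5-fold were fixed. The members and lists were chosen with earlier results of these data known, and the role groups and printed promoters after the values were seen. Genes named are the 3 with the largest difference each way in each complex, tissue-restricted, X-linked and discordant members, 2 per other list, and further members by role. Scripts used Python 3.11.15, pandas 2.3.3 and statsmodels 0.14.6, and were tested on simulated data.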

Additional observations from a re-analysis of the deposited data

How the results depend on the processing

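The direction of the members' median and of each complex's median was the same under the 11 alternatives run for all of them, which were 3 scalings, 3 floors, 16 or 64 added to linear values, 2 other ways to represent a gene, and no use of probe sets with an _x_at or _s_at name. The members' median ranged from 0.07 to 0.13, where a median counted as moved by 0.05 or more and a count by more than 1.5 times. With the arrays recentred on the median of their difference, the members' median was 0.13, 7 members were lower, 8 were at least 1.2-fold higher, and the medians of complexes I to V were 0.15, 0.12, 0.14, 0.16 and 0.075. The count at least 1.2-fold higher (3) became 5 after quantile normalization and 5 after loess centring, and 1 with a 75th percentile floor, with 64 added, and without the tissue-restricted isoforms (chosen after seeing the data). The count at least 1.2-fold lower (1) became 2 without a floor and 2 where a gene's difference was the median of its probe sets. Without the _x_at and _s_at probe sets the complex III median was 0.13. Counting each measured probe set singly, chosen after seeing the data, gave 110 higher. The Ndufa12 difference turned to -0.0037 with the median over all its probe sets, since these disagree, and that of Sdhc became -0.29. Moving Ndufa4 to complex IV moved neither median by 0.05. No paired analysis was possible because there is a single array of each kind. The number of arrays limits the precision of every difference, and Cox6a2, Cox4i2 and Cox8b are near the floor.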
